A study of Mus musculus with 12 samples.

Results

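Airway macrophages (AMs) are the phagocytes that live on the surface of the airways and alveoli. The 9 genes described here, Cs, Idh3a, Idh3b, Idh3g, Ogdh, Suclg1, Sucla2, Fh1 and Mdh2, encode enzymes of the tricarboxylic acid (TCA) cycle and were chosen by name as parts of that pathway, out of 20551 gene rows in the deposited table. All 9 were among the 13729 genes that passed the filter on low counts and were tested. Their RNA was followed in AMs of wild-type (WT) littermates and of Scnn1b-Tg mice on the C57BL/6 strain background, kept for 12 h in medium or with 100 ng/ml lipopolysaccharide (LPS) of P. aeruginosa. In Scnn1b-Tg mice the club cell secretory protein promoter drives the β subunit of the epithelial sodium channel in airway epithelium, not in AMs, and the lungs become mucus-obstructed. The methods of the study give an age of 6 weeks. Per the labels, lavages of 3 to 4 animals were combined in a pool and the cells that stuck to the plate were stimulated, whereas the methods describe AMs sorted from digested lung, and which account holds for these libraries was not settled by the sources. By the numbers in the titles, each of the 6 pools (WT 16, 17 and 18, and Tg 17, 18 and 19) gave 1 library in medium and 1 library with LPS. The 4 groups thus hold 3 libraries each. WT 16, WT 17 and Tg 17 belong to batch 1, and WT 18, Tg 18 and Tg 19 to batch 2 of the labels, and the methods of the study adjust this experiment for the date of library preparation.

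The TCA cycle runs in the mitochondrial matrix. It joins acetyl-CoA to oxaloacetate, oxidises the resulting citrate back to oxaloacetate, and passes the electrons on to the respiratory chain. Macrophages that meet LPS are known to redirect the cycle: citrate is exported for lipid synthesis, cis-aconitate is turned into the antimicrobial metabolite itaconate, and succinate builds up. RNA levels of the enzymes say nothing on their own about flux, which was not measured.

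The library totals ran from 48191248 to 60896505 counts, and each member had between 2476 and 37752 estimated counts in every library. Some groups spread little, such as Fh1 in Tg LPS (58.1 ± 0.65 CPM, SD, n = 3) and Sucla2 in WT medium (56.2 ± 0.892). The part of counting noise in the spread between pools was not tested. Replicates of a group resembled each other (mean Pearson r of log2 CPM 0.973 to 0.978 with the other libraries of the group), and no replicate pair agreed within sampling noise. The 4 libraries of the pools numbered 17 stood apart from the others in a way that touches the members: across 11829 genes, the deviation of a gene from its mean rose with the length of its main transcript in these 4 libraries (Spearman's rho 0.171 to 0.361) and fell with it in the other 8 (-0.259 to -0.028). Fewer cells of a type and less RNA per cell cannot be told apart in such bulk libraries. The 10 AM markers were all detected, with a summed level of 4240 to 4760 CPM in WT medium and 4920 to 5860 CPM in Tg medium. With LPS the sum was lower, at 2560 to 2570 CPM in WT and 2380 to 3750 CPM in Tg. Much of the sum in medium was Fabp5, named here after its values were seen. Its means were 2490 CPM in WT medium, 3130 CPM in Tg medium, 728 CPM in WT LPS and 794 CPM in Tg LPS. For Tg against WT in medium, 8 of the 10 values were above 0 and 2 below. With LPS 7 of the 10 fell in WT and 8 in Tg, and 2, Marco and Car4, named here after their values were seen, rose in both. Over all libraries the markers of monocytes summed to 57.4 to 170 CPM, those of airway or alveolar epithelium to 32.7 to 112 CPM, those of neutrophils to 15.2 to 37.8 CPM, those of dendritic cells to at most 3.63 CPM, and those of T or NK cells and of B cells to at most 1.16 and 1.12 CPM. The part of these markers in the members' values was not tested. Scnn1b itself was at 0 to 0.755 CPM in all libraries and its group means were 0.251 to 0.385 CPM.

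Levels are given as CPM, the counts divided by the library total after scaling with trimmed means, and can be compared between genes only after division by transcript length. Per kb of the main transcript, the order of the levels in WT medium was Mdh2 (255 ± 16.2 CPM per kb, SD, n = 3), Ogdh (133 ± 15.7), Cs (104 ± 7.55), Idh3b (69.5 ± 3.26), Suclg1 (63.7 ± 5.68), Idh3g (55.4 ± 4.16), Idh3a (31.2 ± 0.693), Sucla2 (25.2 ± 0.4) and Fh1 (24.9 ± 0.594). The ranges of Idh3b and Suclg1 overlapped, as did those of Suclg1 and Idh3g and those of Sucla2 and Fh1, so these neighbours were not separated by their spread. The catalytic subunit of the NAD-dependent isocitrate dehydrogenase, Idh3a, was thus at a lower level per kb than either of its partners Idh3b and Idh3g. The order depends in part on the length used: per kb of all exons joined, Idh3g (27.3 CPM per kb) stood above Suclg1 (21) and Fh1 (19.4) above Idh3a (14.8), while Mdh2 (104) and Ogdh (101) still led. In Tg AMs with LPS Mdh2 reached 311 ± 10.2 CPM per kb and Idh3a 21.2 ± 1.59.

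The stretches of DNA just upstream of the members are shown for the genes that were called with LPS in both genotypes and have a RefSeq window. RefSeq windows (GRCm38.p6) were at hand for 8 of the 9 members, 13 windows in all, as Ogdh has several and each of the others 1. Idh3a, on chr9:54586334-54604661 of mm10 (plus strand), has no entry. The bases below lie in the 250 bases before the RefSeq start site and outside every annotated exon, are written in the direction of transcription, and carry in capitals each match to 1 of 8 short motifs that were searched on both strands.
Idh3g, chrX:73786898-73787027, minus strand: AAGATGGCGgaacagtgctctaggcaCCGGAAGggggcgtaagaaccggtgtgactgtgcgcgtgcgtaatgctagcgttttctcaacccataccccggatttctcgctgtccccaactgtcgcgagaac
Suclg1, chr6:73248255-73248381, plus strand: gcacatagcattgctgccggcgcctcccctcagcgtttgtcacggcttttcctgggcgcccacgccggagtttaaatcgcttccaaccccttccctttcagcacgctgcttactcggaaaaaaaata
Mdh2, chr5:135778399-135778479, plus strand: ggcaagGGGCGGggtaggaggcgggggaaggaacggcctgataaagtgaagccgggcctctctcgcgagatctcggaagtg
The capitals in Idh3g mark the YY1 core AAGATGGCG, found in 0.606% of all 32851 windows of 250 bases, and the ETS core CCGGAAG, found in 6.91%. Those in Mdh2 mark a GC box, GGGCGG, which 32.7% of all windows hold. None of the 8 motifs matched in the Suclg1 stretch. Within their full 250 bases Idh3g and Mdh2 also held TGACGT (6.47% of windows), which in Mdh2 is part of the longer TGACGTCA (1.55%). The other motifs were TCAAGGTCA, which binds estrogen-related receptors (0.387% of windows and no member), GCGCATGCG, the NRF1 core (1.45%, Ogdh alone), and CACGTG, the E-box (6.02%, Ogdh alone). The shares are of single windows, and Ogdh with its several windows had more chances of a match than the other members. A match is a run of letters and not a shown site.

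The Idh3g stretch is the whole space between 2 genes: 131 bases separate its start from that of Ssr4, a subunit of the translocon-associated complex of the endoplasmic reticulum, which is read the other way. Ssr4 was at 71.9 CPM in WT medium and 77 CPM in WT LPS, and at 79.5 and 82.5 CPM in Tg. Its log2 fold change with LPS was 0.09 (edgeR SE 0.20, adjusted p = 0.776) in WT and 0.04 (SE 0.20, adjusted p = 0.913) in Tg, where Idh3g was called lower in both. Mdh2 has such a neighbour too, Styxl1, at 95 bases, which was not among the genes tested.

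The first question of the design is what LPS does to WT AMs. 5 of the 9 members changed: Suclg1, Idh3g, Idh3a and Idh3b fell and Mdh2 rose, while Cs, Ogdh, Sucla2 and Fh1 were not called. These are counts at an adjusted p under 0.05 in edgeR's quasi-likelihood test, fitted on all genes with batch as a term. Of all genes tested 16.2% were called lower and 15.5% higher, against 4 and 1 of the 9 members. The median log2 fold change of the members was -0.19, and that of all genes tested 0.003. The count for WT was 1 (Suclg1) where the 6 WT libraries were fitted alone, and 3 without the 4 libraries of the pools numbered 17.

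In Scnn1b-Tg AMs 4 members changed with LPS. Idh3g, Suclg1 and Idh3a fell and Mdh2 rose, whereas Cs, Idh3b, Ogdh, Sucla2 and Fh1 were not called. Here 18.7% of all genes were called lower and 19.3% higher. The median of the members was -0.22, beside -0.015 for all genes. With the pool as a replicate block, which pairs each pool's LPS library with its medium library, the count in Tg was 6: Idh3b (log2 fold change -0.27, adjusted p = 0.0174) and Ogdh (-0.22, adjusted p = 0.0267) were called as well. The medium and LPS groups did not overlap for 7 members in WT and 5 in Tg, where 38.7% and 43.8% of all genes tested had groups that did not overlap. In pairs within a pool, 5 members (Idh3a, Idh3b, Idh3g, Suclg1 and Fh1) were lower with LPS in all 6 pools and Mdh2 was higher in all 6. Of all genes tested 25% were lower and 23.9% higher in all 6.

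**Figure D1:**
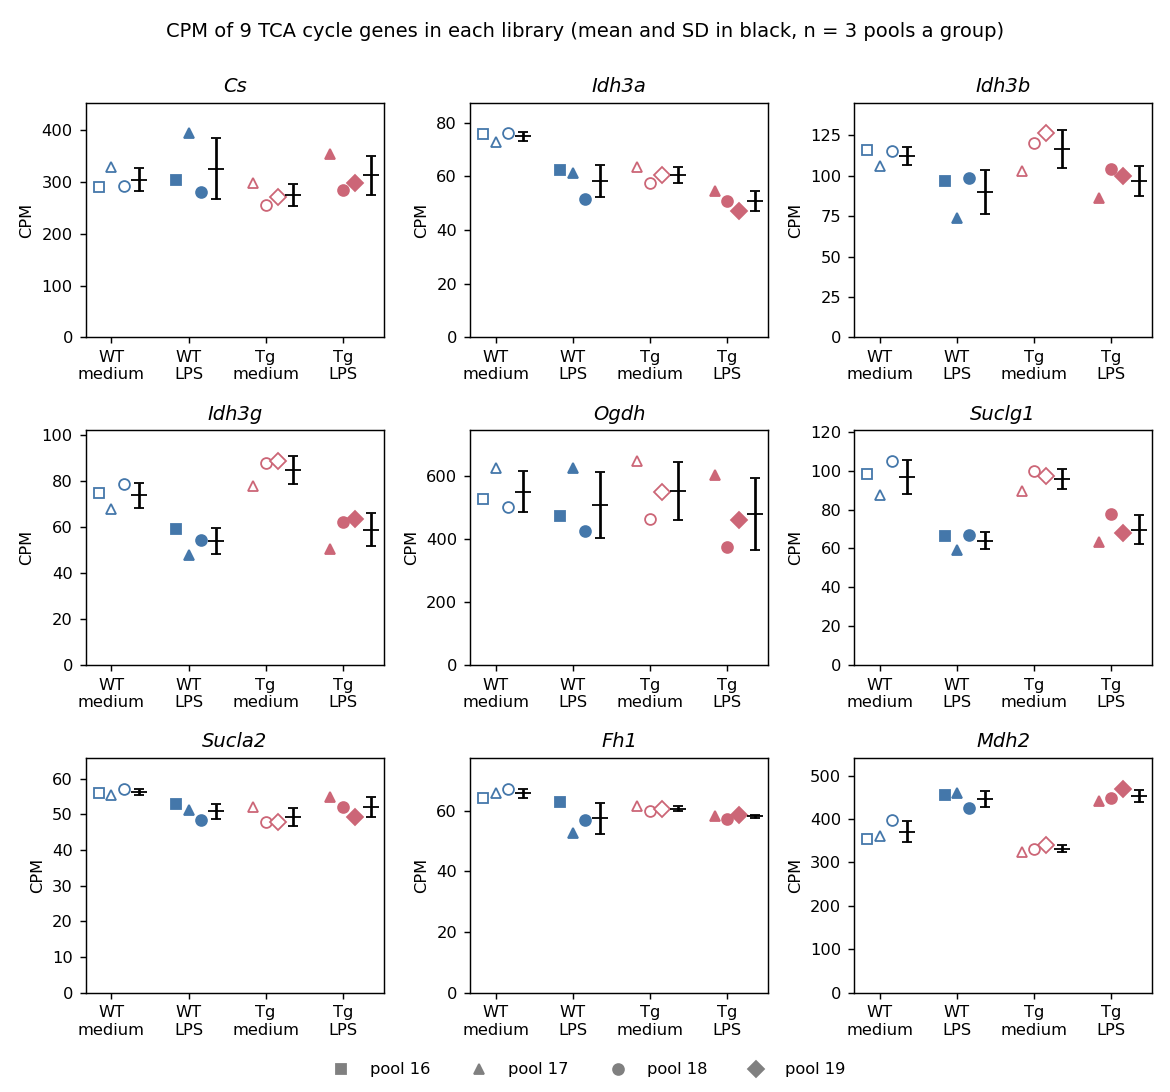
CPM of each of the 9 members in each library (y axis from 0) by group (x axis), with the pool given by the shape, medium open and LPS filled, and the mean ± SD of the 3 pools in black. Suclg1 and Idh3g lie lower with LPS in both genotypes and Mdh2 higher, while the triangles of the pools numbered 17 lie highest for Cs and Ogdh and lowest for Idh3b, Idh3g and Suclg1 in every group.

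The cycle starts with Cs (ENSMUSG00000005683, chr10:128337734-128362479, plus strand), citrate synthase, whose activity is often used as a measure of mitochondrial content. WT medium libraries had 291, 330 and 292 CPM in pools 16, 17 and 18, and WT LPS libraries 304, 394 and 281 CPM. Tg medium libraries had 298, 256 and 271 CPM in pools 17, 18 and 19, and Tg LPS libraries 355, 285 and 299 CPM. The groups overlapped in both genotypes, and the highest value of each group was that of pool 17. The log2 fold change with LPS was 0.09 (edgeR SE 0.10, adjusted p = 0.53) in WT and 0.18 (SE 0.10, adjusted p = 0.18) in Tg. Among annotated transcripts Cs has similar copies, Csl (91.9% identical over 1522 bases) and the pseudogene Gm48254 (92.1% over 469 bases). Whether the counts of Cs hold or lose reads of these was not tested. No other member had such a match.

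The NAD-dependent isocitrate dehydrogenase turns isocitrate into α-ketoglutarate with the release of NADH and is built from a catalytic subunit, Idh3a, and the subunits Idh3b and Idh3g, which complete and regulate it. Idh3a (ENSMUSG00000032279) was at 75.8, 73 and 76 CPM in WT medium and at 62.3, 61.2 and 51.5 CPM in WT LPS. Tg AMs had 63.6, 57.7 and 60.5 CPM in medium and at 54.6, 50.9 and 47 CPM with LPS. Medium and LPS did not overlap in either genotype. Idh3a fell by 0.37 on the log2 scale in WT (edgeR SE 0.08, adjusted p = 0.00427) and by 0.255 in Tg (SE 0.08, adjusted p = 0.0247). The call in Tg was lost without any of 5 of the 6 Tg libraries, with adjusted p between 0.0533 (without Tg medium 18) and 0.112 (without Tg LPS 19), and the fall then lay between 0.212 and 0.27. It was kept without Tg LPS 18, and lost without the batch term (adjusted p = 0.0657) and without the pools numbered 17 (0.0678). In WT the call was lost with the WT libraries fitted alone (adjusted p = 0.0538).

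Idh3b (ENSMUSG00000027406, chr2:130279309-130284547, minus strand) was at 116, 106 and 115 CPM in WT medium and at 96.8, 74 and 98.8 CPM in WT LPS, the lowest value being that of pool 17. The Tg libraries were at 103, 120 and 126 CPM in medium and at 86.2, 104 and 99.9 CPM with LPS, and pool 17 in medium (103) lay below pool 18 with LPS (104), so that these groups overlapped. Idh3b fell by 0.33 on the log2 scale in WT (SE 0.10, edgeR adjusted p = 0.0274). In Tg the value was -0.27 (SE 0.10, adjusted p = 0.0521). There it was called in 10 of the 24 alternatives, DESeq2 among them (adjusted p = 0.0408), and not in 14. The WT call did not hold without any 1 of WT medium 16, 17 or 18 or of WT LPS 17 or 18, where adjusted p lay between 0.0565 and 0.101, and the value was -0.223 without WT LPS 17. In WT Idh3b was not called in 9 of the 24 alternatives. The others were the WT libraries fitted alone (edgeR adjusted p = 0.176), no filter (0.0858), no batch term (0.0842) and the pools numbered 17 left out (0.0602). Every pool moved the same way: the difference of LPS from medium ran from -0.521 in WT 17 to -0.213 in WT 18, and from -0.331 in Tg 19 to -0.215 in Tg 18. Its exons share 5 bases with those of Nop56.

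Idh3g (ENSMUSG00000002010, chrX:73778963-73786897, minus strand) was at 74.7, 67.9 and 78.8 CPM in WT medium and at 59.3, 47.9 and 54.5 CPM in WT LPS. In Tg it was at 77.9, 87.9 and 88.7 CPM in medium and at 50.5, 62.4 and 63.5 CPM with LPS. All LPS libraries lay below all medium libraries. Idh3g fell by 0.45 on the log2 scale in WT (edgeR SE 0.09, adjusted p = 0.00371) and by 0.53 in Tg (SE 0.09, adjusted p = 0.00101), that is to 0.732 and 0.691 of the level in medium. In Tg the call held under every alternative tried. In WT the call was lost (adjusted p = 0.0501) where the WT libraries were fitted alone.

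Ogdh (ENSMUSG00000020456, chr11:6291633-6356642, plus strand) encodes the first enzyme of the α-ketoglutarate dehydrogenase complex, which makes succinyl-CoA. It was at 525, 623 and 500 CPM in WT medium and at 471, 623 and 425 CPM in WT LPS. Tg AMs had 646, 462 and 549 CPM in medium and at 601, 375 and 460 CPM with LPS. The spread between pools was wider than the distance between medium and LPS, with pool 17 highest in every group, and the groups overlapped. The log2 fold change was -0.13 (edgeR SE 0.13, adjusted p = 0.513) in WT and -0.22 (SE 0.13, adjusted p = 0.22) in Tg. Taken pool by pool, Tg AMs moved by -0.105, -0.302 and -0.253, and WT AMs by -0.156, 0.001 and -0.233.

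Succinyl-CoA ligase turns succinyl-CoA into succinate. Its shared α subunit is Suclg1, and the β subunit sets the nucleotide that is made: Sucla2 in the form that yields ATP and Suclg2 in the form that yields GTP. Suclg1 (ENSMUSG00000052738, chr6:73248382-73276911, plus strand) was at 98.2, 87.5 and 105 CPM in WT medium and at 66.5, 59.1 and 66.7 CPM in WT LPS. The Tg libraries were at 89.8, 100 and 97.3 CPM in medium and at 63.3, 78 and 68 CPM with LPS. All 6 LPS libraries lay below all 6 medium libraries. Suclg1 fell by 0.59 on the log2 scale in WT (edgeR SE 0.08, adjusted p = 0.000251) and by 0.46 in Tg (SE 0.08, adjusted p = 0.00112), to 0.663 and 0.727 of the level in medium. It was called in both genotypes in each of the 24 alternatives.

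Sucla2 (ENSMUSG00000022110, chr14:73525319-73596142, plus strand) was at 56, 55.5 and 57.2 CPM in WT medium and at 52.8, 51.2 and 48.5 CPM in WT LPS. In Tg it was at 52.2, 47.8 and 47.8 CPM in medium and at 54.8, 52.2 and 49.3 CPM with LPS. The WT groups did not overlap and the Tg groups did. The log2 fold change was -0.15 (SE 0.07, 95% CI -0.301 to 0.006, edgeR adjusted p = 0.137) in WT and 0.08 (SE 0.07, 95% CI -0.072 to 0.235, adjusted p = 0.4) in Tg, so that neither was called. The partner β subunit Suclg2 was at 28.9 ± 2.29 CPM in WT medium and 11.6 ± 1.1 CPM in WT LPS, and at 30.8 ± 2.21 and 11.8 ± 0.184 CPM in Tg (SD, n = 3). It fell by 1.32 and 1.39 on the log2 scale (SE 0.10 in both, edgeR adjusted p = 2.54e-06 and 1.19e-06).

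**Figure D2:**
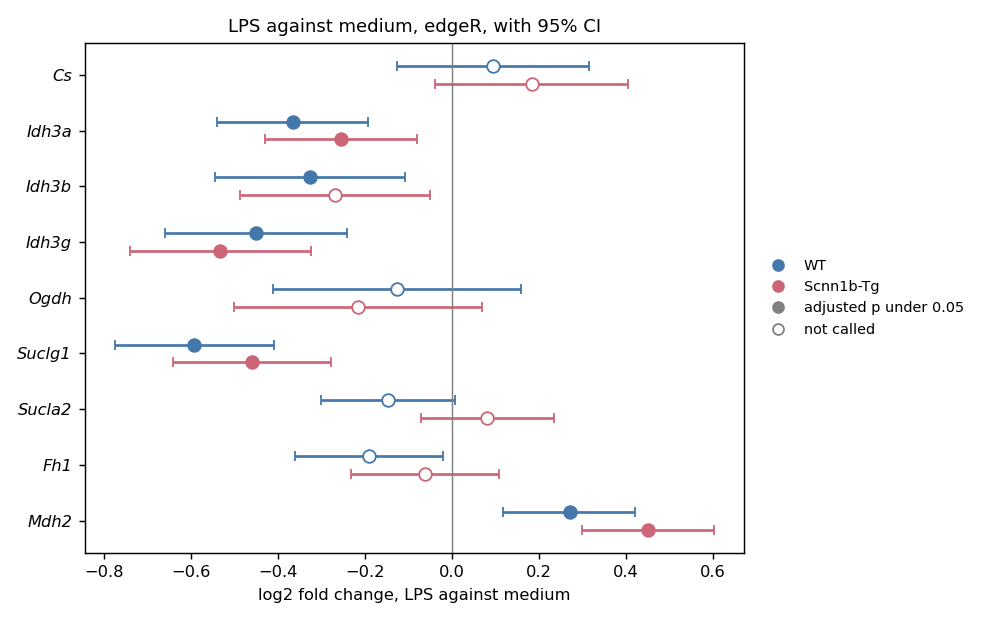
Log2 fold change of LPS against medium (x axis) for each member (y axis) in WT and Scnn1b-Tg AMs, with 95% CI from edgeR and filled points at an adjusted p under 0.05. Suclg1 lies lowest in WT (-0.592) and Idh3g in Tg (-0.533), and Mdh2 is the member called higher (0.27 in WT and 0.45 in Tg).

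Fh1 (ENSMUSG00000026526, chr1:175600374-175625635, minus strand) encodes fumarase, which makes malate from fumarate. It was at 64.2, 65.8 and 67.3 CPM in WT medium and at 63, 52.8 and 56.9 CPM in WT LPS. Tg AMs had 61.5, 60 and 60.5 CPM in medium and at 58.4, 57.4 and 58.6 CPM with LPS. Its groups did not overlap in either genotype, yet the log2 fold change of -0.19 in WT (edgeR SE 0.08, adjusted p = 0.0842) and -0.06 in Tg (SE 0.08, adjusted p = 0.573) was not called. In WT it was called lower in 4 of the 24 alternatives and not in 20. Without WT LPS 16 the value was -0.258 (edgeR adjusted p = 0.0216). The others were the pool as a random effect (limma adjusted p = 0.0335), upper-quartile factors (edgeR, 0.0437) and library totals alone (edgeR, 0.0191).

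Mdh2 (ENSMUSG00000019179, chr5:135778480-135790398, plus strand) encodes the mitochondrial malate dehydrogenase, which closes the cycle by making oxaloacetate. It was at 355, 360 and 398 CPM in WT medium and at 455, 460 and 425 CPM in WT LPS. The Tg libraries were at 323, 332 and 341 CPM in medium and at 442, 448 and 470 CPM with LPS. Every LPS library lay above every medium library. Mdh2 rose by 0.27 on the log2 scale in WT (edgeR SE 0.07, adjusted p = 0.0114) and by 0.45 in Tg (SE 0.07, adjusted p = 0.000355), 1.21 and 1.37 times the level in medium. WT 18 moved least (0.095), and the other 5 pools between 0.35 and 0.464. In WT the call was lost without the pools numbered 17 (value 0.219, adjusted p = 0.111) and with the WT libraries fitted alone (0.299, adjusted p = 0.0528).

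Scaling moves all these values together. With library totals alone in place of trimmed means, the members' values with LPS lay lower by about the same amount: Idh3b in Tg (-0.371, adjusted p = 0.016), Sucla2 in WT (-0.231, adjusted p = 0.0277) and Fh1 in WT (-0.274, adjusted p = 0.0191) were then called lower, and Mdh2 still rose by 0.186 in WT and 0.347 in Tg. The falls of Suclg1, Idh3g, Idh3a and Idh3b and the rise of Mdh2 kept their direction under each of the 24 alternatives in each genotype.

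The ratio of 2 subunits within a library needs no scaling between libraries. The log2 ratio of Suclg1 to Sucla2 counts fell in all 6 pools: by 0.477, 0.451 and 0.409 in WT 16, 17 and 18 and by 0.575, 0.491 and 0.564 in Tg 17, 18 and 19. Its mean went from 0.87 in medium to 0.375 with LPS, a difference of -0.494 (SD 0.065, n = 6 pools, two-sided exact sign-flip permutation p = 0.0312, the smallest that 6 pools can give, and 0.0833 after Benjamini-Hochberg adjustment over the 4 ratios tested). The difference was -0.501 in batch 1 and -0.488 in batch 2. It thus failed the adjusted threshold, which with 6 pools needs at least 3 of the 4 ratios at the smallest p.

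For the subunits of the isocitrate dehydrogenase no ratio passed the adjusted threshold either, which says little at this number of pools. The ratio of Idh3b to Idh3g differed by 0.195 (SD 0.15, higher in 5 of 6 pools, exact permutation p = 0.0625, adjusted 0.0833), and that of Idh3a to Idh3g by 0.184 (SD 0.165, higher in 5 of 6 pools, exact permutation p = 0.0625, adjusted 0.0833). The ratio of Idh3a to Idh3b differed by -0.01 (SD 0.198, higher in 3 of 6 pools, exact permutation p = 0.812, adjusted 0.812). Between genotypes, with no test, the log2 ratio of Idh3a to Idh3b in medium was -0.614 to -0.541 in WT and -1.06 to -0.7 in Tg.

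**Figure D3:**
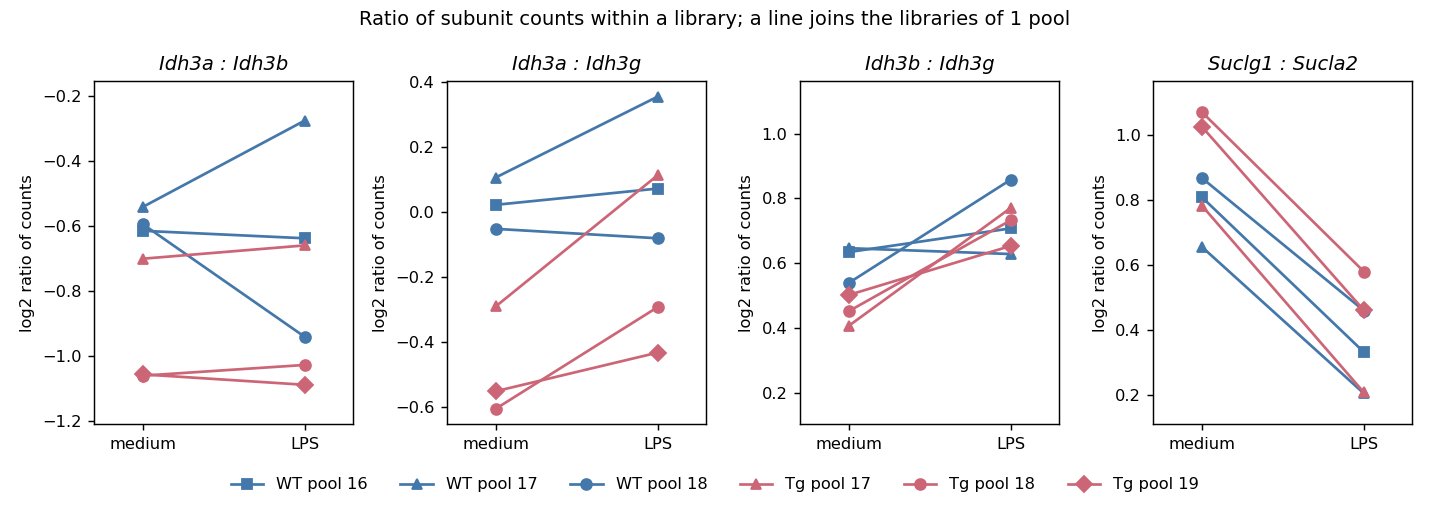
Log2 ratio of the counts of 2 subunits in a library (y axis, the same span in each panel) in medium and with LPS (x axis), with a line for each of the 6 pools. The 6 lines of Suclg1 to Sucla2 all fall, by 0.409 to 0.575, while those of Idh3a to Idh3b go both ways.

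The second question is how Scnn1b-Tg AMs differ from WT AMs. In medium none of the 9 members was called by edgeR, where 0.335% of all genes were. At an unadjusted p under 0.05 there were 3, Idh3a, Sucla2 and Mdh2, against 13.4% of all genes, and DESeq2 called 1, Idh3a (adjusted p = 0.0473), against 3.72% of all genes. Of the 9 values 7 were below 0, with a median of -0.08 beside 0.006 for all genes. For 4 members the groups did not overlap, with Tg the lower in each, as against 18.4% of all genes with groups that did not overlap in either direction.

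Idh3a showed the largest of these differences. Its medium libraries were at 73 to 76 CPM in WT and at 57.7 to 63.6 CPM in Tg, and the log2 difference was -0.27 (SE 0.08, 95% CI -0.445 to -0.089, unadjusted p = 0.00706, edgeR adjusted p = 0.185). Tg was below WT within each batch, by -0.225 in batch 1 and -0.362 in batch 2. Sucla2 differed by -0.17 (SE 0.07, 95% CI -0.326 to -0.011, adjusted p = 0.337), Mdh2 by -0.17 (SE 0.07, 95% CI -0.329 to -0.018, adjusted p = 0.316) and Fh1 by -0.115 (SE 0.08, adjusted p = 0.577). All 3 were lower in Tg in each batch: Sucla2 by -0.096 and -0.26, Mdh2 by -0.146 and -0.243, and Fh1 by -0.078 and -0.16. Idh3g lay the other way, at 0.145 (SE 0.10, adjusted p = 0.565). The medium libraries of each genotype are also the controls of its LPS comparison, so these values and those with LPS are not independent. Markers of airway or alveolar epithelium summed to 79.6 to 104 CPM in WT medium and 40.6 to 70.1 CPM in Tg medium, and those of monocytes to 72.4 to 109 and 93.1 to 158 CPM. Much of the epithelial sum was Scgb1a1, named here after its values were seen, with means of 54.3 CPM in WT medium and 19.5 CPM in Tg medium. Of the 6 epithelial markers tested 5 lay lower in Tg medium and 1 higher. With LPS the sums were 76.8 to 112 CPM in WT and 32.7 to 63.4 CPM in Tg for epithelium, and 58.5 to 99.6 and 57.4 to 170 CPM for monocytes. The part of these markers, or of the higher sum of AM markers in Tg medium, in the members' values was not tested.

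With LPS none of the members was called between genotypes, where edgeR called 0.051% of all genes (7) and DESeq2 1.06%. None reached an unadjusted p under 0.05 either, a mark that 7.12% of all genes passed. The 9 values ran from -0.156 (Idh3a, SE 0.08, 95% CI -0.335 to 0.024) to 0.07 (Suclg1, SE 0.085). Mdh2 was at 447 ± 18.8 CPM in WT and 453 ± 14.8 CPM in Tg (SD, n = 3), a log2 difference of 0.006 (95% CI -0.15 to 0.163). No member had groups that did not overlap, whereas 9.11% of all genes did.

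**Figure D4:**
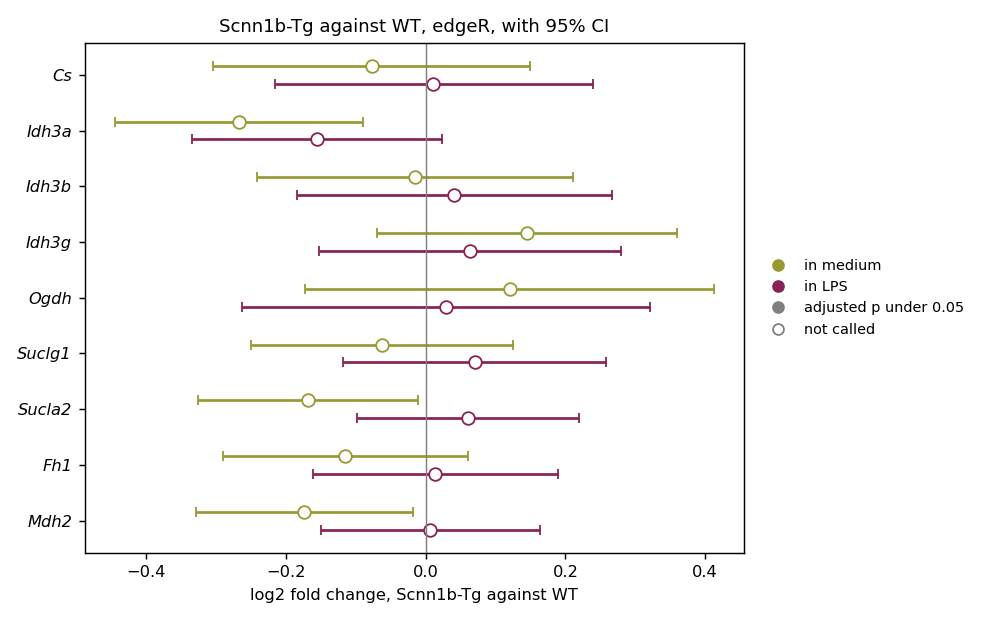
Log2 fold change of Scnn1b-Tg against WT (x axis) for each member (y axis) in medium and with LPS, with 95% CI from edgeR. All points are open, as none was called, and Idh3a lies lowest in both conditions (-0.267 in medium and -0.156 with LPS).

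Whether the 2 genotypes respond differently to LPS was tested by the difference of the responses. No member was called by edgeR, where the share of all genes called was 0%, nor by DESeq2, where it was 0.561%. Sucla2 had an unadjusted p of 0.0405 (adjusted p = 0.818), at a difference of 0.23 on the log2 scale (SE 0.10, 95% CI 0.012 to 0.446), and 5.95% of all genes had an unadjusted p under 0.05. For Mdh2 the difference was 0.18 (SE 0.10, 95% CI -0.034 to 0.394, adjusted p = 0.878). The intervals of the other 7 members lay within -0.493 (Ogdh) and 0.401 (Cs).

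Of the 12 other genes of the cycle, in WT 2 fell and none rose, and in Tg 3 fell and 1 rose. The shares of all genes tested were 16.2% lower and 15.5% higher in WT, and 18.7% and 19.3% in Tg. The counts of falls in this list lay near those shares. Besides Suclg2, Sdha, the flavoprotein subunit of succinate dehydrogenase, fell by 0.33 in WT and 0.37 in Tg (SE 0.07 in both, edgeR adjusted p = 0.00558 and 0.00246). Its level was 428 ± 29.4 CPM in WT medium and 341 ± 34.2 CPM in WT LPS, and 445 ± 40 and 345 ± 24.3 CPM in Tg (SD, n = 3). The values of the other subunits Sdhb, Sdhc and Sdhd were -0.31, -0.19 and -0.26 in WT and -0.27, -0.215 and -0.208 in Tg and were not called. Dlst, the second enzyme of the complex that Ogdh starts, was at 0.11 and 0.09 and was not called, and Dld, the third, rose in Tg (0.33, SE 0.07, adjusted p = 0.00272) and was at 0.12 (adjusted p = 0.213) in WT. Idh2, the mitochondrial NADP-dependent enzyme, fell in Tg (-0.27, adjusted p = 0.0309).

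Genes that feed, drain or bypass the cycle were counted by list. Acod1, which makes itaconate from cis-aconitate, was at 53.9 ± 13.4 CPM in WT medium and 3720 ± 232 CPM in WT LPS, and at 30.2 ± 0.72 and 4220 ± 385 CPM in Tg (SD, n = 3), a rise of 6.11 and 7.13 on the log2 scale (SE 0.18 and 0.19, edgeR adjusted p = 8.13e-09 and 2.06e-09). Among 14 genes of pyruvate entry 2 rose and 5 fell in WT, and 3 rose and 6 fell in Tg. Beside them, 15.5% of all genes tested rose and 16.2% fell in WT, and 19.3% and 18.7% in Tg. Pcx, pyruvate carboxylase, which makes oxaloacetate, rose by 2.41 and 3.06 (adjusted p = 9.55e-06 and 1.37e-06). Mpc2, of the mitochondrial pyruvate carrier, had values of -1 in WT and -0.9 in Tg, both called, and the pyruvate dehydrogenase kinases Pdk1 and Pdk4, which switch off the entry of pyruvate as acetyl-CoA, were called lower, at -1.37 and -1.66 in WT and at -1.39 and -3.18 in Tg. Between genotypes in medium edgeR called Pdk4, higher in Tg (1.52, SE 0.26, adjusted p = 0.045), at 5.65 to 10.2 CPM against 1.47 to 3.72 CPM in WT. DESeq2 called Pdk4 (adjusted p = 0.00056) and also Acod1, at -0.82 in Tg against WT (adjusted p = 9.08e-05), for which edgeR gave an adjusted p of 0.0577. DESeq2 also called the difference in LPS response of Acod1 (1.02, adjusted p = 0.00221), where the adjusted p of edgeR was 0.329.

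Of 6 cytosolic counterparts 1 rose and 2 fell in WT, and 1 rose and 4 fell in Tg. For this list and the next ones the shares of all genes tested were 15.5% higher and 16.2% lower in WT, and 19.3% and 18.7% in Tg. Idh1, the cytosolic NADP-dependent isocitrate dehydrogenase, fell by 0.87 and 1.07 (edgeR adjusted p = 7.52e-06 and 1.12e-06), and Mdh1, the cytosolic partner of Mdh2, fell by 0.43 and 0.45 (adjusted p = 0.0476 and 0.0329) where Mdh2 rose. Me1, malic enzyme, rose by 0.865 and 1.42 (adjusted p = 0.00131 and 3.03e-05). Among 8 genes of anaplerosis, lactate and glutamate 2 rose and 2 fell in WT, and 2 rose and 4 fell in Tg: Ldha and Gpt2 rose by 0.55 and 0.50 in WT and by 0.67 and 0.55 in Tg, and Me2 fell by 0.51 and 0.53. Among 9 mitochondrial carriers 5 fell in WT, and 3 fell and 2 rose in Tg. Slc25a20, the carnitine-acylcarnitine carrier, fell most (-0.49 and -0.565).

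A list of 12 genes of the mitochondrial membranes and import and folding machinery was set beside the members, and mitochondrial content itself was not measured. With LPS 3 rose and none fell in WT, and 8 rose and none fell in Tg, with medians of 0.13 and 0.30. Of all genes tested 15.5% rose and 16.2% fell in WT, and 19.3% and 18.7% in Tg. Vdac3, a pore of the outer membrane, rose by 0.435 and 0.69, and Hspd1, a chaperone of the matrix, by 0.38 and 0.63 (edgeR adjusted p = 0.00109 and 2.19e-05). In medium all 12 values of the list were below 0 in Tg against WT, with a median of -0.23. Of these edgeR called none, 5 had an unadjusted p under 0.05, and DESeq2 called 2, Hspd1 and Tomm40 (adjusted p = 0.0116 and 0.0333). The matching shares of all genes were 0.335%, 13.4% and 3.72%. Of 10 regulators tested 2 rose and 2 fell in WT, and 3 rose and 2 fell in Tg, with medians of 0.12 and 0.225. Ppargc1b, a coactivator of mitochondrial genes, fell by 1.13 and 1.34 (edgeR adjusted p = 0.000933 and 0.000203). Hif1a, which drives glycolytic genes, rose by 0.925 and 1.06. Esrra, the estrogen-related receptor α, rose by 0.33 and 0.60.

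**Figure D5:**
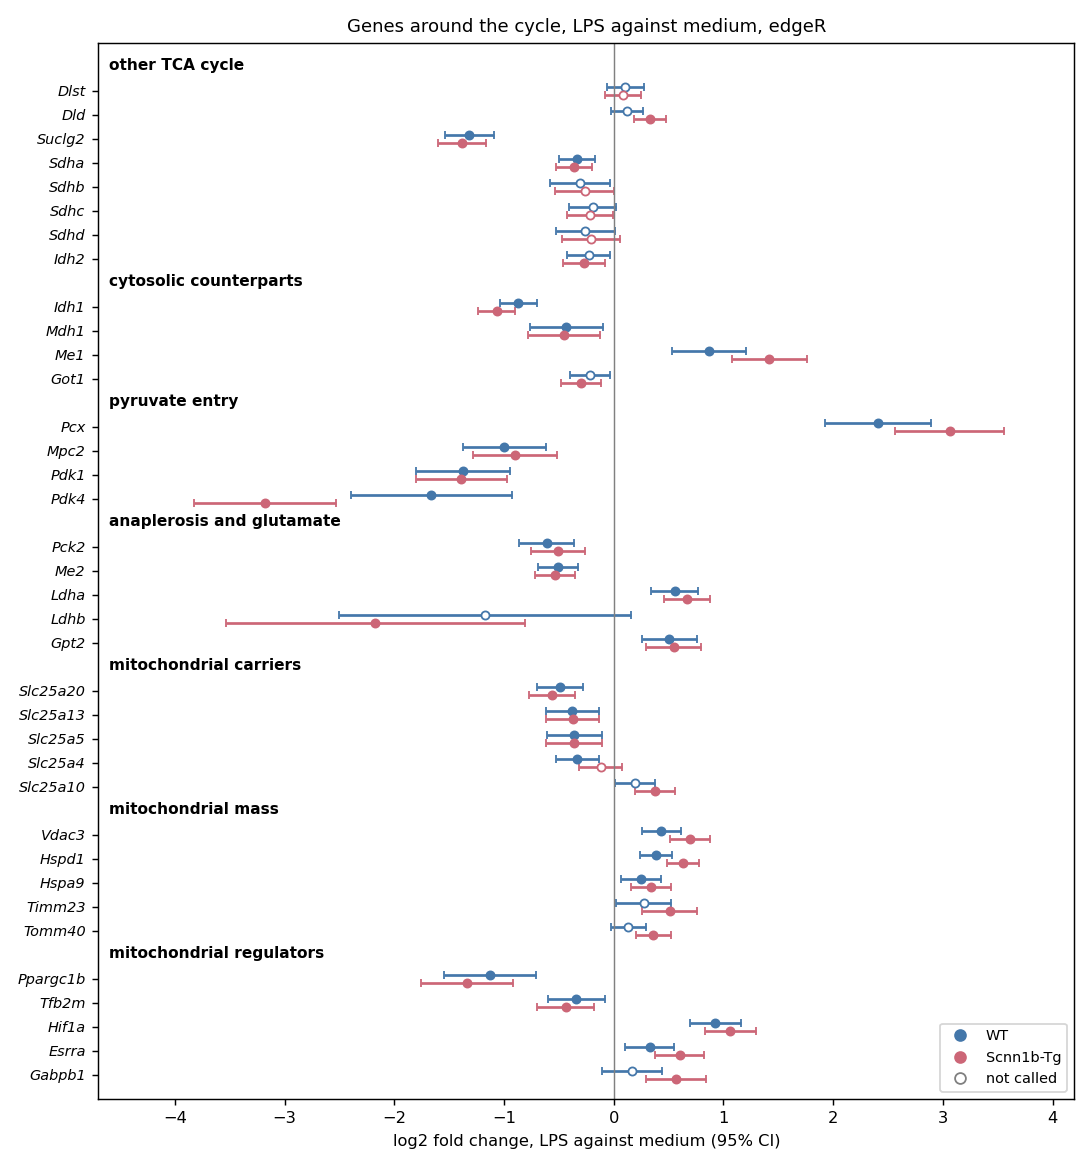
Log2 fold change of LPS against medium with 95% CI from edgeR (x axis) for genes of 7 lists around the cycle (y axis), with open points where not called. Pcx lies furthest to the right (2.41 in WT and 3.06 in Tg) and Pdk4 in Tg furthest to the left (-3.18), while Dlst lies near 0 (0.106 in WT and 0.086 in Tg).

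Over the 12 libraries the members fell into sets by their levels, which share the pools, the LPS step and the length trend of the pools numbered 17. Idh3b, Idh3g and Suclg1 ran together (Pearson r of log2 CPM 0.92 for Idh3b and Idh3g, 0.938 for Idh3g and Suclg1 and 0.889 for Idh3b and Suclg1, n = 12 libraries). Mdh2 ran against them (-0.824 with Suclg1 and -0.82 with Idh3g), and Cs ran against Idh3b (-0.868). Idh3a stood apart from its partners, at 0.296 with Idh3b and 0.388 with Idh3g, and was closest to Fh1 (0.718). The transcripts of Idh3g (1331 bases), Mdh2 (1456), Suclg1 (1519) and Idh3b (1616) are among the shorter 20% of those tested, at percentiles 12.5, 15.3, 16.8 and 19.1, and that of Ogdh (4127 bases) is at percentile 71.4. The part of transcript length in these correlations was not tested.

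Outside the members, of 9092 genes with a mean of at least 5 CPM, the gene most like each member over the 12 libraries was Arhgdia for Cs (r = 0.978), Atp6ap2 for Idh3a (0.976), Ndufs7 for Idh3b (0.968), Pts for Idh3g (0.99), Gaa for Ogdh (0.984), Evi2a for Suclg1 (0.986), Rbbp4 for Sucla2 (0.901), Metrn for Fh1 (0.875) and Mak16 for Mdh2 (0.973). Atp6ap2 fell by 0.32 in WT (adjusted p = 0.00281) and 0.18 in Tg (adjusted p = 0.0492), and Mak16 rose by 0.57 and 0.71. Sucla2 and Fh1, whose range over all libraries was narrow, had the weakest likeness.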

How the data were processed

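RNA of 12 libraries was analysed. Per the labels and the methods of the study, the authors made SMART-Seq v4 libraries without strand information, aligned paired reads with HISAT2 to mm10, and derived with StringTie and its count extraction script the deposited table of whole-number estimated counts per gene (GENCODE M20). Symbols, coordinates and lengths were taken from GENCODE M21 of the same build. Counts were filtered (filterByExpr, minimum 10), scaled by TMM and tested with edgeR 4.0.16 (quasi-likelihood, all 4 groups, batch as a term, adjustment over 13729 genes), and log2 CPM used a prior count of 2. DESeq2 1.42.0, limma 3.58.1, other scalings and filters, batch or pool terms and left-out libraries were alternatives. Libraries with the same genotype and number in their titles were taken as a pool. Their deviations from the group means correlated at r = 0.137 to 0.335. Batch was not removed from these deviations and no unmatched libraries were set beside them, so the values cannot show the pairing. Similar copies of the members were searched among annotated transcripts with BLAST+ 2.17.0. The code was tested on simulated data. Apart from the 9 members, named genes were those called, at most 4 per list and comparison by size, plus 9 fixed genes of the cycle and itaconate, of which 1 is not reported here. Members and lists were chosen with earlier results of these data known. P-values of the main edgeR fit measure the spread between libraries within group and batch, and take both libraries of a pool as independent. The permutation p-values rest on the LPS change within each pool.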

Additional observations from a re-analysis of the deposited data

Results flagged for a closer look

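The response of Sucla2 to LPS went opposite ways in the 2 genotypes: the log2 change within a pool was -0.087, -0.114 and -0.239 in WT 16, 17 and 18 and 0.071, 0.126 and 0.046 in Tg 17, 18 and 19. The difference of the responses was 0.229 on the log2 scale (SE 0.098, edgeR unadjusted p = 0.0405, adjusted p = 0.818), so that it did not pass the test over all genes. With library totals alone the value in Tg was -0.02, the same direction as in WT. The medium level of Sucla2 was lower in Tg in every pool (47.8 to 52.2 CPM against 55.5 to 57.2 CPM). Such opposite signs in all pools were seen in 162 of 13729 genes tested (1.18%), among them Pdhb, Pdhx and Vdac2 of the lists, whose differences had adjusted p of 0.904, 0.654 and 0.909.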

How the results depend on the processing

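Counts of members called stayed within 1.5 times their value, or at 0, in 116 of 119 alternatives. For the comparisons of genotypes and of responses the main count was 0. Few of all genes were called there, so an unchanged 0 says little. A count that held can also hide changed calls: Idh3b in WT was not called in 9 of 24 alternatives and Idh3a in Tg in 7 of 24. The subunit ratios kept their direction and moved by less than their SD between pools in 30 of 32, the other 2 being reversals of Idh3a to Idh3b. For LPS in WT the count was 1 with the groups compared alone and 3 with the 4 libraries of the pools numbered 17 left out (an alternative added after the data were seen). For genotype in medium DESeq2 gave 1. The ratio of Idh3a to Idh3b differed by 0.095 in batch 1 alone, by -0.116 in batch 2 alone, and by -0.066 to 0.057 with 1 pool left out. The cause was not tested. With the pool as a replicate block 5 members were called in WT and 6 in Tg (Idh3b and Ogdh added), and the block changed no other call.

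Values near 0 that were never called turned sign. For Tg against WT in LPS these were, with upper-quartile factors, Cs -0.006, Fh1 -0.005 and Mdh2 -0.012. With library totals alone they were Cs -0.003, Fh1 -0.002 and Mdh2 -0.009, and Sucla2 with LPS in Tg was -0.02. With no filter they were Cs -0.004, Fh1 -0.004 and Mdh2 -0.011. Without the batch term Cs was -0.061, Ogdh -0.081 and, in medium, Idh3b 0.053. With the replicate block by number in place of batch Cs was -0.073, Ogdh -0.117 and Mdh2 -0.012, and in medium Idh3b 0.047, Ogdh -0.03 and Suclg1 0.012. With the groups compared alone Fh1 was -0.003. Without the pools numbered 17 Ogdh was -0.057, Fh1 -0.039, Idh3b in medium 0.086, Cs with LPS in WT -0.004 and the difference of responses of Idh3b -0.043.

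With 1 library left out the ranges that crossed 0 were, for Tg against WT in LPS, Cs -0.056 to 0.12, Idh3b -0.048 to 0.133, Idh3g -0.014 to 0.165, Ogdh -0.065 to 0.129, Fh1 -0.04 to 0.082 and Mdh2 -0.072 to 0.032. In medium Idh3b ran from -0.111 to 0.037, Cs with LPS in WT from -0.028 to 0.181, and the difference of responses from -0.046 to 0.162 (Idh3b), -0.142 to 0.032 (Idh3g) and -0.191 to 0.023 (Ogdh). With all counts divided by 5 as a check of depth, the counts of members called were 5 in WT and 4 in Tg.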
